A study of Homo sapiens with 84 samples.

Results

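The expression of 10 genes of the death receptor pathway was followed in 2 squamous carcinoma cell lines under stimulation of the epidermal growth factor receptor (EGFR). The genes were the receptors TNFRSF10A, TNFRSF10B, FAS and TNFRSF12A, the adaptor FADD, the initiator caspase CASP8 and its regulator CFLAR, and the inhibitor of apoptosis genes BIRC2, BIRC3 and XIAP. They were chosen by gene symbol through their Ensembl identifiers and make up 10 of the 58395 genes listed for each library. All 10 passed the filter on low counts in each cell line, although TNFRSF10A stood at or near 0 counts in FaDu cells.

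Kyse30 is an established line of esophageal squamous carcinoma in which EGFR is amplified, and FaDu is one of pharyngeal squamous carcinoma without that amplification. The study asked how dose and duration of EGFR activation by EGF, or by EpEX, the extracellular domain of the adhesion molecule EpCAM, change transcription. Cells of every group had been serum-starved for 24 h before treatment and belonged to 13 conditions per line. These were untreated cells at 0, 6 and 72 h, and cells given the immunoglobulin Fc region (Fc), EGF at 1.8 nM (EGFlow), EGF at 9 nM (EGFhigh), EpEX fused to Fc (EpEX), or EGFhigh with EpEX for 6 or 72 h. Untreated cells were the control of EGF, and Fc was the control of the treatments with EpEX.

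Here 63 libraries of 3′ RNA-seq were described, 43 of Kyse30 with 3 or 4 per condition, and 20 of FaDu cells with 1 or 2 per condition. A Kyse30 library held between 1944948 and 11759799 counts on genes (median 6304338). The FaDu libraries were deeper, with 6217938 to 12442349 counts (median 9259762). A count of 3, taken as the floor, was worth 0.255 to 1.54 CPM (counts scaled to a common library total) in Kyse30 and 0.241 to 0.483 CPM in FaDu cells. CPM values were scaled with TMM factors set over the 63 libraries. In 3′ RNA-seq a transcript gives reads from its 3′ end, so that a CPM does not grow with transcript length.

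The FaDu libraries described were chosen by replicate number, and replicates 1 and 2 were left out of the comparisons. Those libraries stood apart from replicates 3 and 4 in some of these genes. In plain CPM without TMM factors, the median of FADD was 50.7 (28.1 to 82.4) in the 21 libraries of replicates 1 and 2 and 160 (118 to 255) in the 20 libraries of replicates 3 and 4. The 2 sets did not overlap in FADD and overlapped in the other genes. CASP8, for example, lay at 4.18 to 49.0 against 7.14 to 14.7, and BIRC2 at 40.0 to 177 against 49.2 to 80.9. TNFRSF10A had a median of 25.1 (1.54 to 107) in replicates 1 and 2 and of 0.135 (0 to 2.47) in replicates 3 and 4, and TNFRSF10B one of 9.68 and 58.8.

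Both lines carried markers of their labelled epithelial origin. Of 8 squamous epithelial markers, 6 reached a median of 5 CPM in Kyse30 and 8 in FaDu cells. KRT5 and KRT14, keratins of the basal layer, stayed below it in Kyse30 with medians of 2.08 and 0.712 CPM. EPCAM had medians of 212 CPM in Kyse30 and 384 CPM in FaDu cells. Of the immune markers, PTPRC, CD3E and CD14 had a median of 0 in each line, and CD68 one of 0.503 CPM in Kyse30 and 0.718 CPM in FaDu cells. The fibroblast markers were not all at 0: COL1A1 had medians of 13.9 and 8.80 CPM and COL1A2 of 5.06 and 0.375 CPM, while DCN was at 0 in both lines. Of the endothelial markers, PECAM1 and KDR had a median of 0 in both lines and CDH5 one of 1.83 and 4.52 CPM. In bulk libraries, fewer cells that express a gene and less of its RNA per cell cannot be told apart.

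Death receptors are members of the tumor necrosis factor (TNF) receptor family that carry a death domain. Bound by a ligand such as TRAIL or FAS ligand, they gather the adaptor FADD, which recruits the initiator caspase CASP8, and CFLAR encodes FLIP, a caspase-like protein that competes for a place in this complex. BIRC2 and BIRC3 encode the ubiquitin ligases cIAP1 and cIAP2, which act below TNF receptors and steer NF-kappaB signalling, and XIAP binds and blocks effector caspases. BIRC3 is a textbook target gene of NF-kappaB.

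BIRC3 and BIRC2 lie 7.81 kb apart on chromosome 11. Over the Kyse30 libraries their coefficients of variation were 67.9% and 16.7%. The genes were not tested against each other, and a part of the promoter in this was not tested. The bases before their GENCODE 29 start sites are printed here because they differ in a motif of NF-kappaB. Both stretches are on the + strand of GRCh38.p14, from RefSeq promoter windows of 250 bases before to 50 bases after a start site. BIRC3 spans chr11:102317234-102317449 and BIRC2 spans chr11:102346964-102347210. Capitals mark matches to the NF-kappaB consensus GGGRNNYYCC on either strand, where R is A or G, Y is C or T and N is any base.
BIRC3: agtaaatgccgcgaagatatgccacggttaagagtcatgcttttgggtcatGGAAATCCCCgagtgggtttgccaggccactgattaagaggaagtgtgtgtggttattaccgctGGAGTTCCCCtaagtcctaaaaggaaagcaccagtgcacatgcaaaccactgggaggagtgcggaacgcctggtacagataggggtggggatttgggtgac
BIRC2: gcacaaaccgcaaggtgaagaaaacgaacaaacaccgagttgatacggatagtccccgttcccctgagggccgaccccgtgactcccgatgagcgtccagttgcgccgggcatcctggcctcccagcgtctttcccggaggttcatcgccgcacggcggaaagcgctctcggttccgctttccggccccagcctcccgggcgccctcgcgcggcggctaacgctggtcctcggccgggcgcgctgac

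The BIRC3 window held 2 matches, at chr11:102317285-102317294 and chr11:102317349-102317358, both read on the - strand. The BIRC2 windows held none. Of 35116 RefSeq promoter windows, 11.3% held at least 1 such match. Windows were given for 7 of the 10 genes, and of the others 1 window each of CFLAR and FAS held 1 match, while those of FADD, CASP8 and XIAP held none. The AP-1 motif TGANTCA occurred in the 1 FADD window, in 2 of 3 CASP8 windows, 1 of 4 CFLAR windows and 1 of 3 FAS windows, and in none of the 2 BIRC2, 1 BIRC3 and 3 XIAP windows, against 7.71% of all windows. The cAMP response motif TGACGTCA occurred at 1 site, which lies in both BIRC2 windows because they overlap, against 1.85% of all windows. A match describes the letters and was not tested as a binding site.

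**Figure D1:**
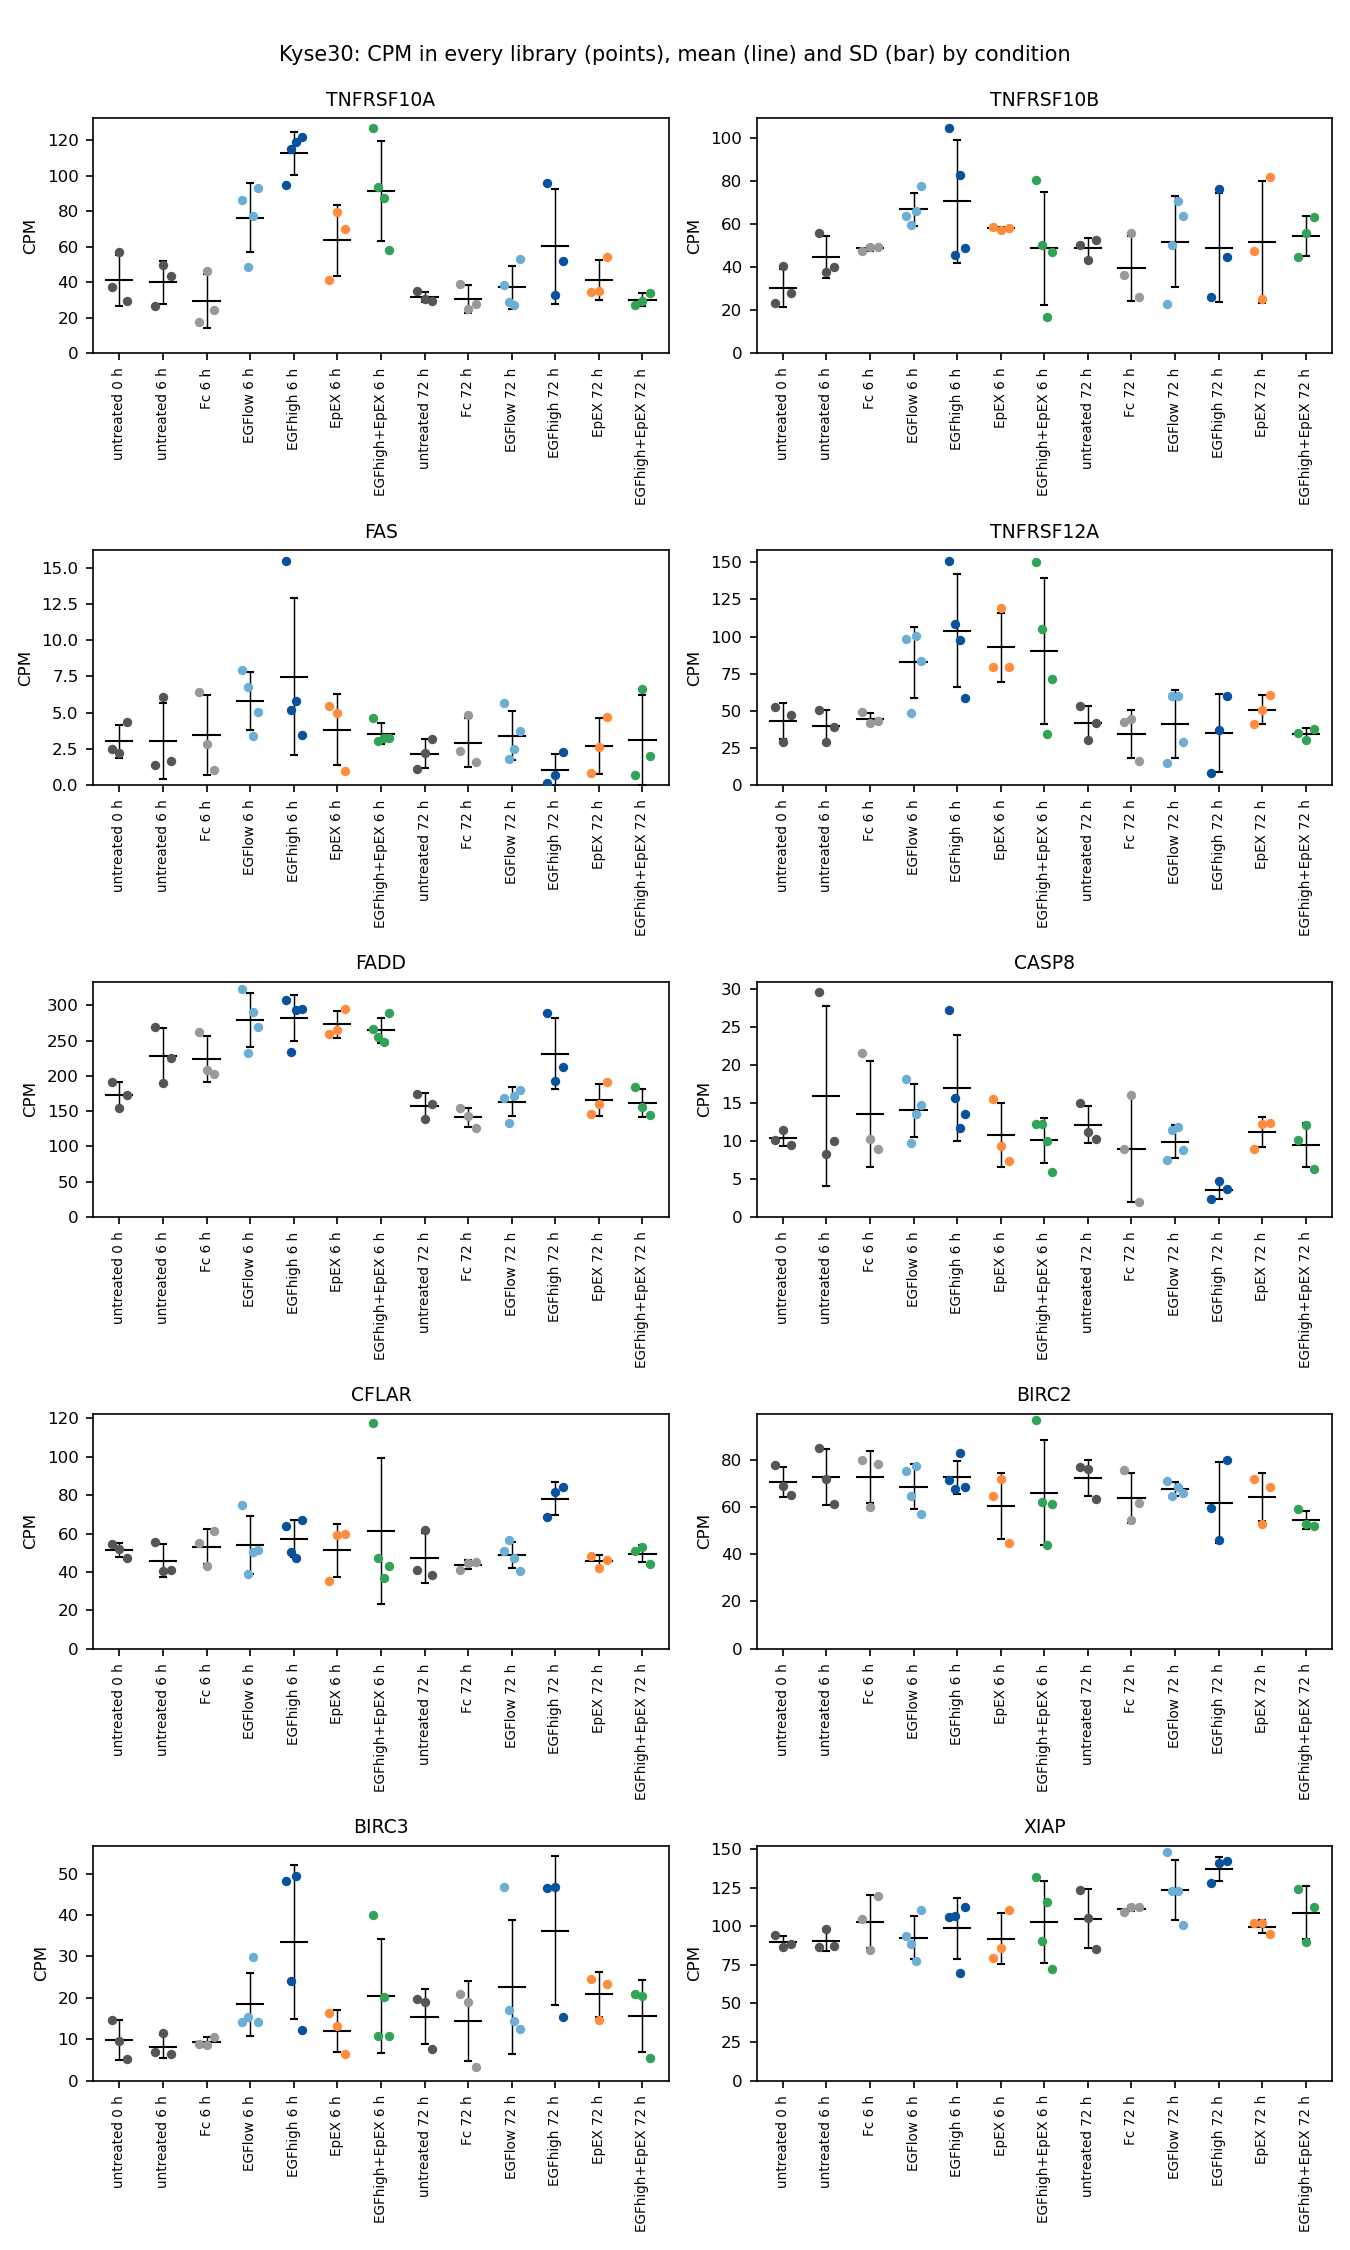
CPM of the 10 genes in each of the 43 Kyse30 libraries, with 1 panel per gene, the conditions along the horizontal axis and CPM from 0 on the vertical axis. Points are libraries, lines are means and bars are SDs of 3 or 4 libraries, and the EGFhigh libraries at 6 h stand above the untreated ones for TNFRSF10A, TNFRSF12A and BIRC3, and at 72 h below them for CASP8.

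TNFRSF10A, which encodes the TRAIL receptor DR4 (chromosome 8, 23190452 to 23225126, GRCh38), rose in Kyse30 cells within 6 h of EGFhigh. Untreated cells at 6 h held 26.5, 49.9 and 43.5 CPM (39.9 ± 12.1, SD, n = 3), and EGFhigh-treated cells held 95, 115, 119 and 122 CPM (113 ± 12.1, SD, n = 4). The lowest treated library stood well above the highest untreated one. The log2 fold change (log2FC) was 1.48 (SE 0.32, adjusted p = 0.00735, edgeR quasi-likelihood test with Benjamini-Hochberg adjustment over 15350 genes). Without untreated replicate 1 the log2FC was 1.26 and the adjusted p 0.0763.

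With EGFlow, TNFRSF10A was at 86.4, 48.5, 77.5 and 93.1 CPM at 6 h, and 1 of these 4 libraries fell within the range of the untreated ones (log2FC 0.92, SE 0.32, adjusted p = 0.142). It was called without a filter (adjusted p = 0.0263) and with untreated and Fc libraries together as the control (0.00718). EGFhigh with EpEX gave 127, 93.6, 87.3 and 58.1 CPM against 17.6, 46.5 and 24.2 CPM under Fc. These groups did not overlap, and the gene rose with a log2FC of 1.6 (SE 0.33, adjusted p = 0.00249). EpEX alone gave 41.0, 79.7 and 70.1 CPM, overlapping with Fc (log2FC 1.12, SE 0.34, adjusted p = 0.21, and 0.0227 without a filter). EGFhigh and EGFlow did not overlap at 6 h for TNFRSF10A, but the difference between them did not pass the test (log2FC 0.56, SE 0.29, adjusted p = 1).

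At 72 h TNFRSF10A was spread widely under EGFhigh, at 95.8, 32.8 and 51.7 CPM, against 35.1, 30.5 and 29.3 CPM in untreated cells (log2FC 0.87, SE 0.33, adjusted p = 0.12). The difference passed the threshold without a filter on low counts (adjusted p = 0.0330), with untreated and Fc libraries together as the control (0.0279) and without EGFhigh replicate 3 (0.0461). Libraries with EGFhigh and EpEX held 26.9, 29.3 and 34.0 CPM. They lay near the untreated level, and their difference from EGFhigh was -0.95 on the log2 scale (SE 0.34, adjusted p = 0.109), which passed without a filter (0.0213) and without EGFhigh replicate 3 (0.0447). The EGFhigh effect at 72 h minus that at 6 h was -0.61 (SE 0.46, adjusted p = 0.598).

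TNFRSF12A encodes the receptor of the cytokine TWEAK, which lacks a death domain and signals through TNF receptor associated factors. Its level at 6 h was 50.9, 28.8 and 39.4 CPM in untreated Kyse30 cells and 151, 109, 97.6 and 58.9 CPM with EGFhigh. The groups did not overlap, with a log2FC of 1.38 (SE 0.45) that missed the threshold (adjusted p = 0.0972). EGFlow gave 98.4, 48.4, 100 and 83.7 CPM (log2FC 1.04, SE 0.45, adjusted p = 0.273), and EpEX gave 79.4, 119 and 79.5 CPM against 48.9, 42.1 and 43 CPM under Fc (log2FC 1.06, SE 0.47, adjusted p = 0.471). EGFhigh with EpEX gave 150, 105, 34.2 and 71.3 CPM, on both sides of Fc (log2FC 0.98, SE 0.45, adjusted p = 0.216). The difference for EGFhigh passed the test with untreated and Fc libraries together as control (log2FC 1.28, adjusted p = 0.0212), with only the groups compared (0.0134) and without a filter (2.7e-05). Without a filter EGFlow (0.00597), EpEX (0.0330) and EGFhigh with EpEX (0.00732) passed too, and EGFlow also with only the groups compared (0.0442). At 72 h the EGFhigh libraries of TNFRSF12A lay at 7.82, 36.8 and 60.1 CPM, on both sides of the untreated ones at 53.5, 30.0 and 41.8 CPM.

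TNFRSF10B encodes the other signalling TRAIL receptor, DR5, and FAS the receptor of FAS ligand. TNFRSF10B ranged from 16.7 to 105 CPM over the Kyse30 libraries (median 50). Under EGFhigh at 6 h it held 105, 45.6, 83.0 and 48.7 CPM against 55.8, 37.9 and 40.2 CPM in untreated cells (log2FC 0.64, SE 0.38, adjusted p = 0.454). The last bases of TNFRSF10B overlap those of RHOBTB2 on the opposite strand over 67 bases. RHOBTB2 had a median of 52.5 CPM. The strand setting of the counting is not given in the sources used here, and sharing of reads between these 2 ends was not tested. At FADD, AP000879.1 covers the last 1000 bases on the opposite strand with a median of 0 CPM in both lines. FADD itself had medians of 203 CPM in Kyse30 and 158 CPM in FaDu cells. FAS was low, from 0.122 to 15.4 CPM (median 3.17), with 15.4, 5.15, 5.83 and 3.44 CPM under EGFhigh and 1.37, 6.10 and 1.69 CPM in untreated cells at 6 h (log2FC 1.24, SE 0.75, adjusted p = 0.461). FAS overlapped between treated and control libraries at 6 h.

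FADD (chromosome 11, 70203163 to 70207390, GRCh38) links receptors to the caspase. It varied from 127 to 323 CPM over the 43 Kyse30 libraries, with a median of 203 CPM and a coefficient of variation of 26.8%. The 4 highest of the 13 group means belonged to the treatments at 6 h. EGFhigh at 6 h led with 282 ± 32.9 CPM (SD, n = 4), followed by EGFlow, EpEX and EGFhigh with EpEX. Each of these 4 treatments overlapped its control at 6 h, and FADD was called in none of them. EGFhigh spanned 234 to 307 CPM and untreated cells 189 to 270 CPM. EpEX spanned 259 to 295 CPM and Fc 203 to 262 CPM. The lowest mean was that of Fc at 72 h with 141 ± 13.7 CPM (SD, n = 3). Of the 12 pairs of groups next to each other in the order of means, 1 did not overlap, namely Fc at 6 h above untreated cells at 0 h.

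The level of FADD was also compared over time in culture without treatment. Untreated cells held 191, 154 and 173 CPM at 0 h, 270, 189 and 225 CPM at 6 h, and 175, 139 and 159 CPM at 72 h. At 72 h they lay below every library of 6 h, by 0.51 on the log2 scale (SE 0.17), but the difference did not pass the test (adjusted p = 0.135). For untreated cells at 72 h against 6 h, 0 of the 10 genes were called by edgeR and by DESeq2, with 1 at an unadjusted p under 0.05, where 1.55% of all genes were called. The difference of 6 h from 0 h was 0.38 (SE 0.17, adjusted p = 1).

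At 72 h EGFhigh held FADD at 289, 193 and 212 CPM, above untreated cells in each library. The log2FC was 0.51 (SE 0.17) and missed the threshold (adjusted p = 0.0697). DESeq2 called it (log2FC 0.52, adjusted p = 0.0246), as did the filter at a mean of 5 CPM (0.0376) and the fit with untreated and Fc libraries together as control (log2FC 0.59, adjusted p = 0.00496), and over the alternatives the log2FC ranged from 0.37 to 0.62 with an adjusted p of up to 0.319. FADD was among the genes the study picked on these libraries, so its direction here is no independent evidence. EGFlow at 72 h gave 169, 133, 172 and 179 CPM and EGFhigh with EpEX gave 184, 156 and 144 CPM, both close to the untreated range. Against EGFlow the difference of EGFhigh was 0.49 (SE 0.16, adjusted p = 0.0812), and adding EpEX to EGFhigh changed the level by -0.48 (SE 0.17, adjusted p = 0.119), in each case with no overlap of the libraries.

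CASP8 (chromosome 2, 201233443 to 201287711, GRCh38), the initiator caspase bound by FADD, fell in Kyse30 after 72 h of EGFhigh. It held 2.32, 4.69 and 3.69 CPM (3.57 ± 1.19, SD, n = 3), from 19, 27 and 26 counts, against 14.9, 11.2 and 10.3 CPM in untreated cells (12.2 ± 2.45, SD, n = 3). The groups did not overlap and the log2FC was -1.81 (SE 0.50, adjusted p = 0.0203). The other treatments at 72 h left it at 7.48 to 11.9 CPM (EGFlow), 8.89 to 12.4 CPM (EpEX) and 6.25 to 12.0 CPM (EGFhigh with EpEX). One Fc library at 72 h, at 1.91 CPM, was lower than all EGFhigh libraries, while the other Fc libraries held 8.98 and 16.1 CPM. The call was lost without untreated replicate 1 (adjusted p = 0.0813), EGFhigh replicate 1 (0.122) or EGFhigh replicate 4 (0.0583), and with only the groups compared in the fit (0.0687), with log2FC values from -2.06 to -1.54 over the libraries left out.

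At 6 h CASP8 was not lower with EGFhigh, with 27.2, 15.6, 11.7 and 13.5 CPM against 29.6, 8.25 and 9.99 CPM (log2FC 0.07, SE 0.44, adjusted p = 0.97). The effect at 72 h minus that at 6 h was -1.88 (SE 0.66, adjusted p = 0.173) and passed the test only without untreated replicate 1 of 6 h (0.0417). EGFhigh against EGFlow at 72 h gave -1.48 (SE 0.48, adjusted p = 0.0726), and EGFhigh with EpEX against EGFhigh gave 1.44 (SE 0.50, adjusted p = 0.103), without overlap in both. DESeq2 called CASP8 for EGFhigh against EGFlow (log2FC -1.47, adjusted p = 0.0321), as did edgeR without a filter (0.0439).

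CFLAR ends 56.8 kb before CASP8 on the same strand of chromosome 2 and lay on the other side of the control. Under EGFhigh at 72 h it held 68.4, 81.6 and 84.3 CPM, all above the untreated libraries at 41.2, 62.0 and 38.3 CPM. This difference did not pass the test (log2FC 0.69, SE 0.28, adjusted p = 0.151). EGFlow (50.7, 56.7, 47.0 and 40.3 CPM), EpEX (41.8 to 48.3 CPM) and EGFhigh with EpEX (51.0, 53.1 and 44.3 CPM) stayed within the untreated range. With untreated and Fc libraries together as control, CFLAR was called for EGFhigh (log2FC 0.75, adjusted p = 0.0314).

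BIRC3 (chromosome 11, 102317450 to 102339403, GRCh38) rose at 6 h of EGFhigh and was among the most variable of the 10 genes in Kyse30, with a coefficient of variation of 67.9%. Untreated cells at 6 h held 6.87, 11.5 and 6.33 CPM (8.23 ± 2.83, SD, n = 3) and EGFhigh-treated cells 48.4, 24.0, 49.6 and 12.1 CPM (33.5 ± 18.5, SD, n = 4). Each treated library exceeded each untreated one, but the lowest came close to the highest untreated value. The log2FC was 2.0 (SE 0.57, adjusted p = 0.0457). The call rested on the full set of libraries: it was lost when any of the 3 untreated replicates or EGFhigh replicates 1, 2 or 3 was left out, with adjusted p values from 0.0635 to 0.213 and log2FC values from 1.75 to 2.34.

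BIRC3 did not overlap with its control under EGFlow at 6 h (14.2, 15.5, 29.9 and 14.1 CPM, log2FC 1.14, SE 0.55, adjusted p = 0.355) or under EGFhigh with EpEX (40.0, 10.7, 20.2 and 10.8 CPM against 8.74, 8.51 and 10.6 CPM under Fc, log2FC 1.09, SE 0.55, adjusted p = 0.274). Neither difference passed the test. At 72 h EGFhigh gave 46.6, 46.7 and 15.4 CPM, against 19.7, 18.9 and 7.73 CPM in untreated cells. EGFhigh replicate 4 lay inside the untreated range, and the log2FC was 1.18 (SE 0.57, adjusted p = 0.241). Without a filter this difference passed (adjusted p = 0.0364), as did that of EGFhigh with EpEX from EGFhigh at 72 h (log2FC -1.20, adjusted p = 0.0476, and 0.288 with the filter). In the order of the 13 group means, from EGFhigh at 72 h (36.2 CPM) and at 6 h down to untreated cells at 6 h, no pair of neighbours was free of overlap.

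The neighbour BIRC2 was the steadiest of the 10 genes, from 43.7 to 96.8 CPM with a coefficient of variation of 16.7%. XIAP followed with 18.2%, from 69.6 to 148 CPM. Neither was called in a comparison within Kyse30. At 72 h XIAP held 128, 141 and 142 CPM under EGFhigh and 124, 105 and 85.5 CPM in untreated cells, without overlap (log2FC 0.35, SE 0.20, adjusted p = 0.335). Under EpEX at 72 h its 102, 102 and 94.8 CPM lay below the 110, 112 and 113 CPM of Fc (log2FC -0.17, adjusted p = 1).

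**Figure D2:**
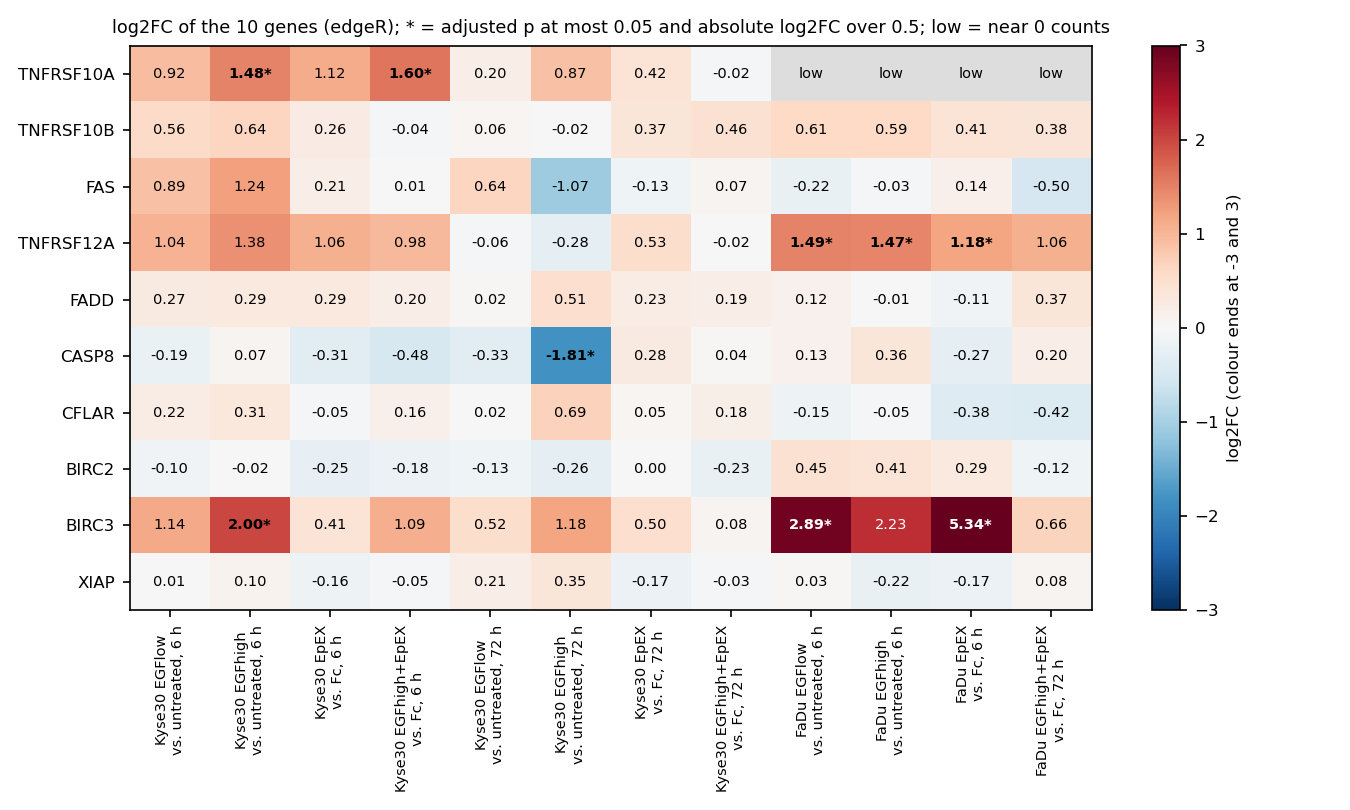
log2FC of the 10 genes (rows) in 12 comparisons of a treatment with its control (columns) from edgeR, as numbers and colours that end at -3 and 3. Stars mark the calls, such as TNFRSF10A (1.48) and BIRC3 (2.0) for EGFhigh at 6 h in Kyse30; grey fields marked low are TNFRSF10A in FaDu cells near 0 counts, and the BIRC3 value of 5.34 rests on 2 counts in the control.

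Set side by side, few of the 10 genes passed the test in any comparison within Kyse30. To be called, a gene needed an absolute log2FC above 0.5 together with an adjusted p no higher than 0.05. EGFhigh at 6 h called 2 of 10, TNFRSF10A and BIRC3, where 2.55% of all genes tested were called. The median log2FC of the 10 was 0.48, against -0.05 over all genes. EGFhigh with EpEX at 6 h called 1, TNFRSF10A, against 4.52% of all genes, and EGFhigh at 72 h called 1, CASP8, against 6.2%.

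EGFlow at 6 h called 0 of 10 by edgeR and 0 by DESeq2, with 3 genes at an unadjusted p under 0.05, where 1.5% of all genes were called. EpEX at 6 h called 0 by edgeR and by DESeq2, with 2 at an unadjusted p under 0.05, and 0.0261% of all genes were called. At 72 h EGFlow, EpEX and EGFhigh with EpEX against their controls each called 0 by both tools, with 0 at an unadjusted p under 0.05, and 0% of all genes were called by edgeR. EGFhigh against EGFlow at 72 h called 0 by edgeR and 1 by DESeq2, with 5 at an unadjusted p under 0.05 and 3.73% of all genes called. EGFhigh with EpEX against EGFhigh at 72 h called 0 by both, with 5 at an unadjusted p under 0.05 and 3.58% of all genes called. The EGFhigh effect at 72 h minus that at 6 h called 0 by both, with 3 at an unadjusted p under 0.05 and 1.01% of all genes called. Within a time point EGFlow and EGFhigh share their untreated libraries, and EpEX and EGFhigh with EpEX share their Fc libraries.

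Counted by libraries that did not overlap, 3 of the 10 genes were higher with EGFhigh at 6 h (TNFRSF10A, TNFRSF12A and BIRC3), as were 7.62% of all genes, and 0 were lower, against 7.56%. With EGFlow 2 were higher (TNFRSF10B and BIRC3), against 7.15% of all genes, with EpEX 2 (TNFRSF10B and TNFRSF12A), against 6.46%, and with EGFhigh and EpEX 2 (TNFRSF10A and BIRC3), against 8.85%. For EGFhigh against EGFlow at 6 h 1 was higher (TNFRSF10A), against 1.02%, and at 72 h 2 were higher (FADD and CFLAR) and 1 lower (CASP8), against 6.07% and 5.87%. Untreated cells at 72 h against 6 h had 1 lower (FADD), against 10.8%, and EpEX at 72 h 1 lower (XIAP), against 3.9%. With EGFhigh at 72 h 3 were higher (FADD, CFLAR and XIAP) and 1 lower (CASP8), against 11.5% and 11.1%. When EpEX was added to EGFhigh at 72 h, the same 4 genes were free of overlap in the opposite direction, with 1 higher and 3 lower against 9.97% and 9.94% of all genes. Both of these comparisons use the EGFhigh libraries.

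In the other direction, 0 of the 10 genes were lower without overlap at 6 h with EGFlow (6.68% of all genes), EpEX (6.55%) or EGFhigh and EpEX (6.17%), and 0 were higher with EpEX at 72 h (4.05%). All 10 overlapped when EpEX was added to EGFhigh at 6 h (1.01% of all genes higher and 0.808% lower without overlap), with EGFlow at 72 h (2.4% and 1.97%) and with EGFhigh and EpEX at 72 h (4.35% and 4.07%). They also overlapped between Fc and untreated cells at 6 h (3.13% and 4.81%) and at 72 h (3.09% and 3.12%), and between untreated cells at 6 h and 0 h (4.08% and 3.88%).

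At 72 h of EGFhigh, where 6.2% of all genes were called, 2 of 8 squamous markers rose and 6 were not called. ITGB4 had 3919 ± 561 CPM under EGFhigh and 950 ± 156 CPM in untreated cells (log2FC 2.02, adjusted p = 2.73e-05), and KRT17 rose with a log2FC of 2.22 (adjusted p = 0.00777). Of the immune markers CD68 was called higher (adjusted p = 0.0462), at 5.99 to 11.5 CPM with EGFhigh and 0 to 1.03 CPM in untreated cells, and no fold is given since the untreated libraries lie near the floor of 3 counts. PTPRC, CD3E and CD14 had medians of 0 over the Kyse30 libraries. Of the fibroblast markers 2 were tested, COL1A1 and COL1A2, and of the endothelial ones 1, CDH5, and none of these was called. The part of these markers in the values at 72 h was not tested.

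**Figure D3:**
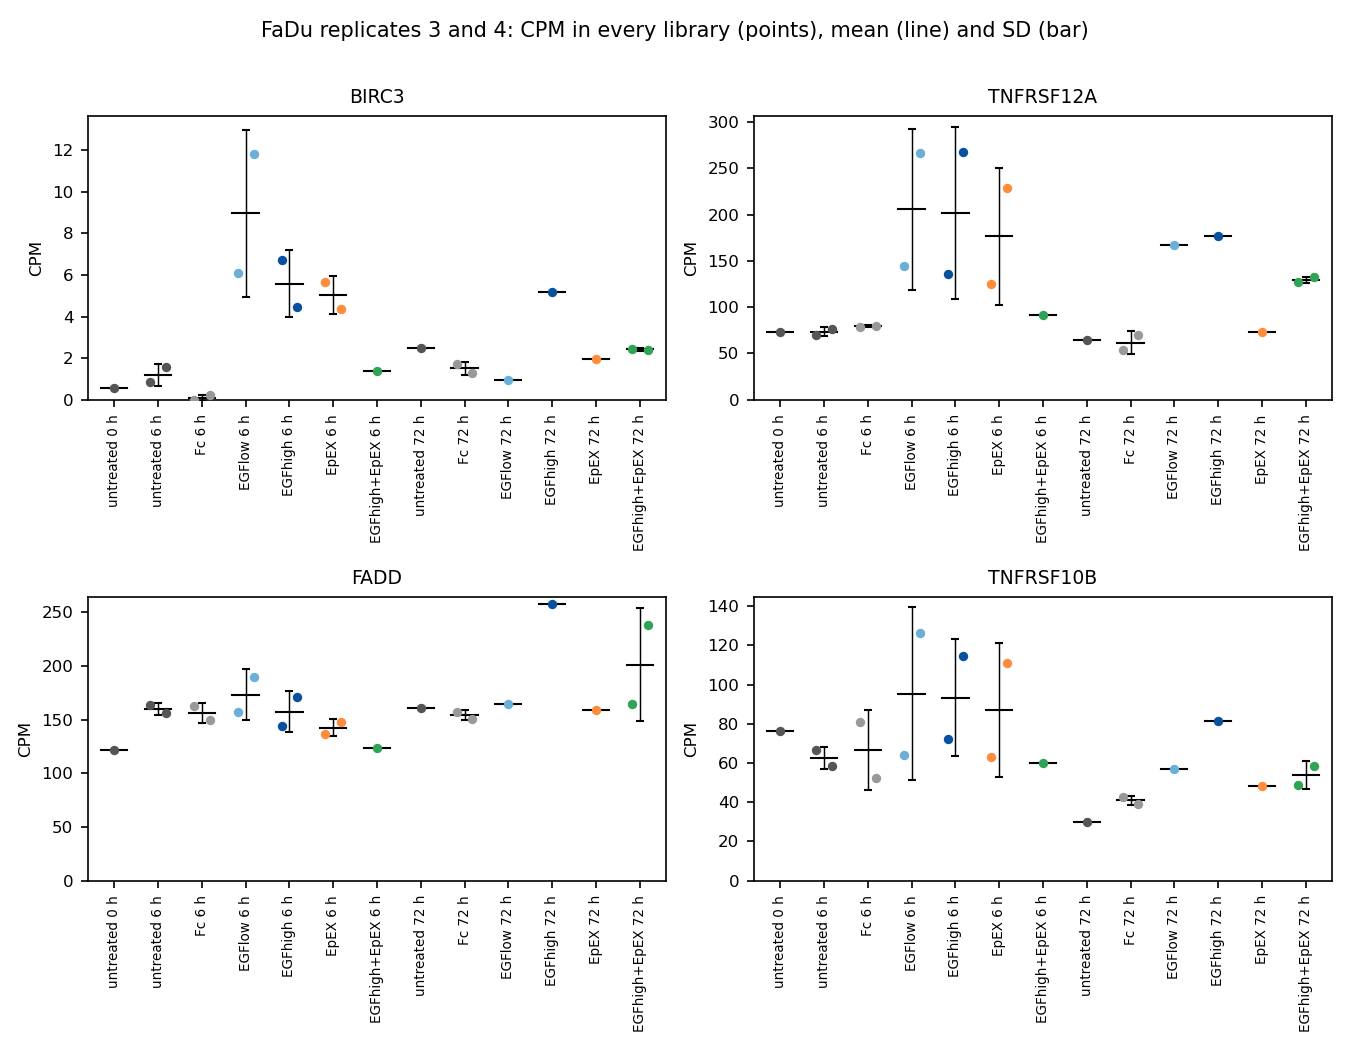
CPM of BIRC3, TNFRSF12A, FADD and TNFRSF10B in the 20 FaDu libraries of replicates 3 and 4, with 1 panel per gene, conditions along the horizontal axis and CPM from 0 on the vertical axis. Points are libraries, lines means and bars SDs where a condition has 2 libraries; BIRC3 and TNFRSF12A stand above their controls in the 6 treated libraries of EGFlow, EGFhigh and EpEX at 6 h.

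In FaDu replicates 3 and 4, BIRC3 and TNFRSF12A were the genes called at 6 h. With all 4 FaDu replicates in the fit, none of these calls was kept, and the log2FC of BIRC3 turned to -1.29 for EGFlow and -2.18 for EGFhigh. TNFRSF12A held 69.9 and 76.8 CPM in untreated cells, 144 and 267 CPM with EGFlow, and 136 and 267 CPM with EGFhigh. It rose with a log2FC of 1.49 for EGFlow (SE 0.32, adjusted p = 0.0119) and 1.47 for EGFhigh (SE 0.32, adjusted p = 0.0138). EpEX gave 125 and 229 CPM against 78.5 and 80.1 CPM under Fc (log2FC 1.18, SE 0.32, adjusted p = 0.0464). In the 3 treatments replicate 4 held the higher TNFRSF12A value. The single library with EGFhigh and EpEX at 6 h, for which no test was made, held 91.6 CPM of TNFRSF12A and 1.40 CPM of BIRC3, below each library of the other 3 treatments. The EpEX call for TNFRSF12A was lost without Fc replicate 3 (adjusted p = 0.22), Fc replicate 4 (0.176) or EpEX replicate 4 (0.454), with only the groups compared (0.0780) and with a mean of at least 5 CPM (0.0638), and the calls for EGF were lost without either untreated library or the treated replicate 4.

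BIRC3 was near the floor in FaDu controls. Untreated cells at 6 h held 0.831 and 1.56 CPM, from 7 and 13 counts, and Fc-treated cells 0 and 0.207 CPM, from 0 and 2 counts. EGFlow gave 6.11 and 11.8 CPM, and BIRC3 rose with a log2FC of 2.89 (SE 0.65, adjusted p = 0.016). EGFhigh gave 6.72 and 4.45 CPM, above both untreated libraries, with a log2FC of 2.23 (SE 0.65) that missed the threshold in edgeR (adjusted p = 0.0774) and passed in DESeq2 (adjusted p = 0.0467) and with untreated and Fc libraries together as control (0.00812). The EGFlow call was lost without either untreated library or EGFlow replicate 4.

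EpEX gave 5.66 and 4.38 CPM of BIRC3 in FaDu cells at 6 h. Summed over libraries, 87 counts stood against 2 under Fc, a ratio of counts per total of 40.5 (95% exact interval 10.9 to 340, counting error only). BIRC3 was called higher than under Fc (adjusted p = 0.00122), and the fitted log2FC of 5.34 depends on the prior count. Against the 20 counts of untreated cells at 6 h the ratio was 3.88 (2.37 to 6.66). Fc itself stood higher at 72 h, with 1.74 and 1.30 CPM (27 counts, ratio to Fc at 6 h 14.0, 3.52 to 121), a difference that was called (adjusted p = 0.039) but lost when any of the 4 libraries was left out.

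In FaDu cells EGFlow called 2 of the 10 genes at 6 h (3.45% of all genes tested), EGFhigh 1 (3.06%) and EpEX 2 (3.5%). EGFhigh with EpEX at 72 h called 0 by edgeR and by DESeq2, with 1 at an unadjusted p under 0.05, where 0.818% of all genes were called. TNFRSF12A held 128 and 132 CPM there, against 53.4 and 70.3 CPM under Fc (log2FC 1.06, SE 0.32, adjusted p = 0.211). That difference was called with the replicate block (log2FC 1.09, adjusted p = 0.0140), with only the groups compared (0.00502) and without a filter (4.72e-05). Fc at 72 h against 6 h called 1 (2.88%). With 2 libraries per group, the 16022 genes tested gave non-overlapping libraries often, 20.4% higher and 22.6% lower for EGFlow, where 3 of the 10 genes were higher. EGFhigh had 4 higher (19.7% and 21.2% of all genes higher and lower), EpEX 3 higher and 3 lower (18.7% and 21.1%), EGFhigh with EpEX at 72 h 5 and 3 (20.9% and 20%), and Fc at 72 h against 6 h 3 and 3 (24.6% and 24.2%). TNFRSF10A, at 4 counts or fewer in the libraries of 6 h, is left out of these counts.

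FADD in FaDu cells lay between 122 and 258 CPM (median 158). At 6 h EGFlow held 157 and 190 CPM and EGFhigh 144 and 171 CPM, around the untreated 164 and 156 CPM. EpEX at 6 h held 137 and 148 CPM, below the 150 and 163 CPM of Fc, a difference that was not called. The single library of EGFhigh with EpEX at 6 h held 123 CPM. The single library of EGFhigh at 72 h held the highest value, 258 CPM, against 161 CPM in the single untreated library, and no contrast of these single libraries was fitted. EGFhigh with EpEX at 72 h gave 164 and 238 CPM against 157 and 151 CPM under Fc (log2FC 0.37, SE 0.18, adjusted p = 0.752). CASP8 stayed between 7.33 and 14.8 CPM in the FaDu libraries, and its value of 10.6 CPM in the EGFhigh library at 72 h lay inside that range. Nothing in the labels says that replicates were separate cultures, so the p-values measure the spread between these libraries, which may be technical.

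**Figure D4:**
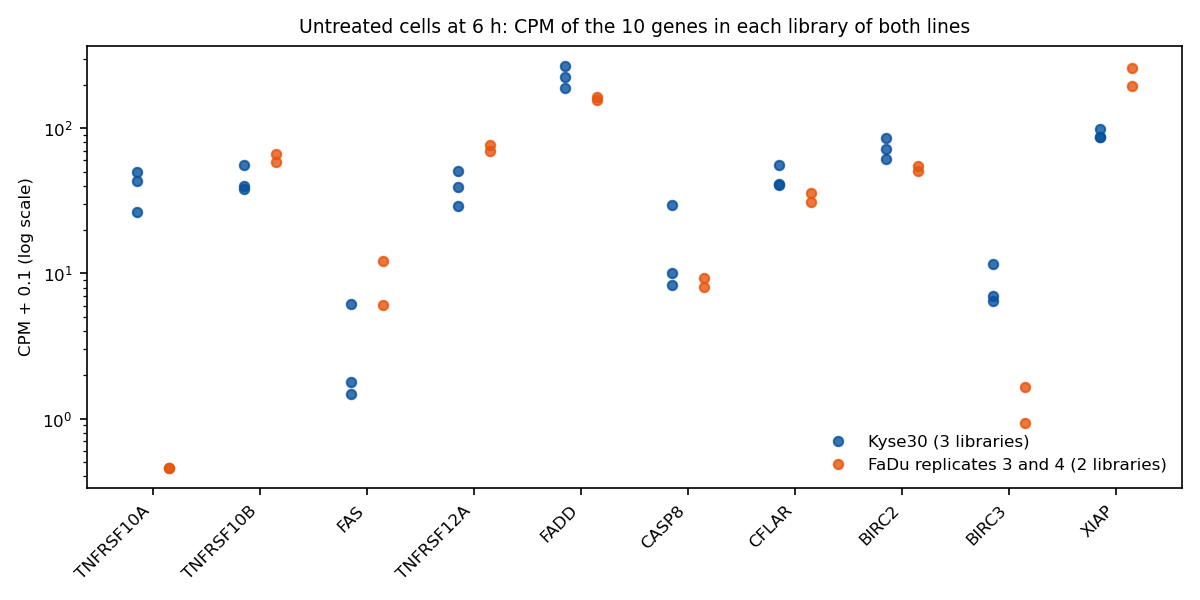
CPM plus 0.1 on a log scale of the 10 genes in each untreated library at 6 h, with Kyse30 (3 libraries) in blue and FaDu replicates 3 and 4 (2 libraries) in orange. TNFRSF10A and BIRC3 are higher in Kyse30, and XIAP is higher in FaDu cells.

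Between Kyse30 and FaDu replicates 3 and 4, TNFRSF10A had the largest log2FC of the 10 genes. In untreated cells at 6 h it held 880 counts in the 3 Kyse30 libraries and 6 counts, 3 in each, in the 2 FaDu libraries. The ratio of counts per total was 116 (95% exact interval 52.9 to 316, counting error only) and the gene was called higher in Kyse30 (adjusted p = 3.06e-11). With all FaDu replicates the call was lost (log2FC 1.49, adjusted p = 0.633). Over the 20 FaDu libraries TNFRSF10A stayed at or below 0.389 CPM, except for 2.32 CPM (20 counts) in Fc replicate 3 at 72 h. No fold of a treatment is given for it in FaDu cells, since all but 1 of the libraries compared at 6 h held 3 counts or fewer, and that one, EpEX replicate 4, held 4.

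BIRC3 was also higher in untreated Kyse30 cells, with a log2FC of 2.77 (SE 0.75, adjusted p = 0.00437), and XIAP was lower (log2FC -1.32, SE 0.23, adjusted p = 1.01e-05). XIAP ranged from 158 to 339 CPM in FaDu replicates 3 and 4, above each of the 43 Kyse30 libraries, but from 40.5 to 158 plain CPM in FaDu replicates 1 and 2. With all FaDu replicates the XIAP call was lost (log2FC -0.85, adjusted p = 0.359) and the BIRC3 difference turned (log2FC -0.94, adjusted p = 0.679). FADD was higher in Kyse30 by 0.51 on the log2 scale (SE 0.20) and missed the threshold (adjusted p = 0.0543), while it was called by DESeq2 (log2FC 0.56, adjusted p = 0.00575), with RLE size factors (0.0271), with a mean of at least 5 CPM (0.0149) and without Kyse30 untreated replicate 3 (0.0175). With that, 3 of the 10 genes were called between the lines, where 22.4% of 19634 genes were called, and 5 were higher and 3 lower without overlap (22.8% and 24.2% of all genes). The BIRC3 call was lost without FaDu untreated replicate 3 (adjusted p = 0.0991). The EGFhigh effect at 6 h did not differ between the lines for any of the 10 genes at the threshold (0 called by edgeR and by DESeq2, 1 at an unadjusted p under 0.05, 0.0611% of all genes called by edgeR), and TNFRSF10A is not readable in this test because of its counts in FaDu cells. In absolute level the peak of BIRC3 at 6 h was 49.6 CPM in Kyse30 (EGFhigh) and 11.8 CPM in FaDu cells (EGFlow).

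**Figure D5:**
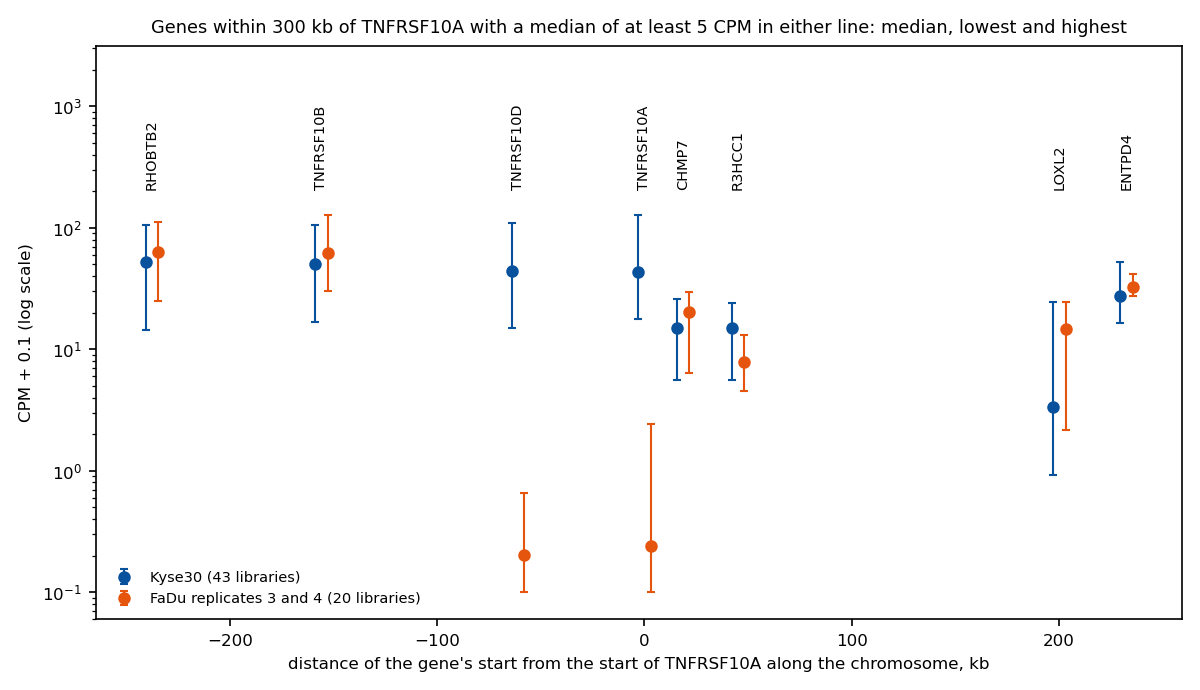
CPM plus 0.1 on a log scale of the genes within 300 kb of TNFRSF10A that reach a median of 5 CPM in a line, by the distance of their starts from that of TNFRSF10A in kb. Points are medians and bars run from the lowest to the highest library of Kyse30 (43, blue) and FaDu replicates 3 and 4 (20, orange); TNFRSF10D and TNFRSF10A are near 0 in FaDu cells and the others are not.

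TNFRSF10A lies in a cluster of TRAIL receptor genes, and its neighbour TNFRSF10D was near 0 in FaDu cells too. TNFRSF10D encodes a decoy receptor that binds TRAIL without passing on a death signal. Its median was 43.6 CPM in Kyse30 and 0.103 CPM in FaDu cells, with 1014 counts against 1 in untreated cells at 6 h (ratio 799, 95% exact interval 143 to 31603). TNFRSF10B, 121 kb away from TNFRSF10A, had medians of 50 and 61.3 CPM, and CHMP7, whose start lies 18.5 kb from that of TNFRSF10A on its other side, had medians of 14.9 and 20.2 CPM. TNFRSF10C, the other decoy gene of the cluster, was listed at 0 in all libraries described. The values low in FaDu cells but not in Kyse30 thus lay in 2 adjacent receptor genes. TNFRSF10C, at 0 in both lines, lies between TNFRSF10D and the expressed TNFRSF10B, and the expressed CHMP7 lies on the other side. In the FaDu libraries of replicates 1 and 2, where TNFRSF10A had a median of 25.1 CPM, TNFRSF10D had one of 0.771 plain CPM (0 to 31.7).

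In Kyse30 TNFRSF10D also moved with the treatments. At 72 h it held 58.2 ± 4.11 CPM (SD, n = 3) with EGFhigh, 24.8 ± 10.8 CPM in untreated cells and 23.5 ± 8.35 CPM with EGFhigh and EpEX. It rose with EGFhigh (log2FC 1.19, SE 0.37, adjusted p = 0.0429) and was lower when EpEX was added (log2FC -1.27, SE 0.37, adjusted p = 0.0416). The TNFRSF10D call for EGFhigh was lost without untreated replicate 2 or 3 or any 1 of the 3 EGFhigh libraries (adjusted p from 0.0667 to 0.236). Over these and the other alternative fits, that call was lost in 6. At 6 h its mean was 94.1 ± 17.6 CPM with EGFhigh and 47.9 ± 7.10 CPM in untreated cells, a difference that was not called.

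FADD lies on chromosome 11 between ANO1 and PPFIA1. PPFIA1, which starts 67.5 kb from FADD, had a median of 476 CPM in Kyse30 and 1602 CPM in FaDu cells and was lower in untreated Kyse30 at 6 h (log2FC -1.77, adjusted p = 9.29e-10). CTTN, which encodes the actin-binding protein cortactin, was called lower as well, with medians of 1431 and 2408 CPM. ANO1 went the other way, with medians of 36.1 and 1.24 CPM (log2FC 4.47, adjusted p = 1.14e-06). FADD, with medians of 203 and 158 CPM, was also higher in Kyse30, like ANO1, but with a smaller difference. That difference was not called in the edgeR fit reported, and DESeq2 called it. The calls for PPFIA1, CTTN and ANO1 were made against FaDu replicates 3 and 4. With all FaDu replicates, 953 genes were called between the lines in place of 4400, and the outcome for PPFIA1, CTTN and ANO1 is not given.

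Of the other genes of the pathway, 6 ligands were listed, and 3 passed the filter in Kyse30. FASLG, TNF, TNFSF12 and LTA, which encode FAS ligand, TNF, TWEAK and lymphotoxin alpha, had a median of 0 in both lines. TNFSF10, which encodes TRAIL, had medians of 19.8 CPM in Kyse30 and 3.74 CPM in FaDu cells and was higher in untreated Kyse30 (log2FC 3.09, adjusted p = 0.0153). That call was made against FaDu replicates 3 and 4, and its outcome with all FaDu replicates is not given. TNFSF15 rose in Kyse30 at 6 h with EGFlow (log2FC 2.03, adjusted p = 0.0439) and EGFhigh (log2FC 2.05, adjusted p = 0.0308). It was at 7.39 ± 3.83 CPM in untreated cells and 31.1 ± 11.1 CPM with EGFhigh. The TNFSF15 call was lost without untreated replicate 1 or 3 in both comparisons (adjusted p from 0.134 to 0.205), without untreated replicate 4 or EGFlow replicate 1 or 4 for EGFlow, and without EGFhigh replicate 1 or 4 for EGFhigh.

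Of 10 other TNF receptors and decoys, 6 were tested in Kyse30, and 2 rose with EGFhigh at 72 h, TNFRSF10D and TNFRSF25, a death domain receptor (log2FC 2.36, adjusted p = 0.0072). Their median log2FC was 0.89, against -0.03 over all genes, of which 6.2% were called. Of 19 adaptors, kinases and ubiquitin enzymes, 16 were tested. TRAF3, a brake on non-canonical NF-kappaB signalling, rose at 6 h with EGFlow (log2FC 1.44, adjusted p = 0.0183) and EGFhigh (log2FC 1.22, adjusted p = 0.0363). Both TRAF3 calls were lost without untreated replicate 1 or 4 (adjusted p from 0.0917 to 0.228), and that for EGFhigh also without EGFhigh replicate 2 or 4. MAP3K14, which encodes the kinase NIK of that arm, fell with EGFhigh at 72 h (log2FC -2.69, adjusted p = 0.00261), from 16.8 ± 4.81 to 2.64 ± 1.85 CPM. In FaDu replicates 3 and 4 MAP3K14 was called in the opposite direction with EpEX at 6 h, at 19.4 ± 3.30 CPM against 6.68 ± 0.789 CPM under Fc (SD, n = 2, log2FC 1.55, adjusted p = 0.0219). CYLD, which encodes a deubiquitinase that restrains NF-kappaB signalling, rose there with EGFlow (log2FC 0.93, adjusted p = 0.0276), EGFhigh (log2FC 0.90, adjusted p = 0.0371) and EpEX (log2FC 1.08, adjusted p = 0.0109). Of the 16 genes of the list tested in FaDu cells, 1, 1 and 2 were thus called in these comparisons, where 3.45%, 3.06% and 3.5% of all genes were. These FaDu calls were lost with all FaDu replicates, where CYLD turned for EGFlow (-0.21) and EGFhigh (-0.33). They were also lost without any 1 library for CYLD with EGFlow and EGFhigh, without Fc replicate 3 or EpEX replicate 4 for CYLD with EpEX, and without Fc replicate 3 or 4 or EpEX replicate 3 for MAP3K14. Over all alternative fits, calls were lost in 6 for CYLD with EGFhigh besides its turn, 4 for CYLD with EpEX and 5 for MAP3K14.

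Genes of NF-kappaB factors and their textbook targets rose in both lines, in greater number in FaDu cells. The list held 17 genes, of which 13 passed the filter in Kyse30 and 16 did so in FaDu cells. In Kyse30 at 6 h, 2 rose with EGFhigh (median log2FC of the list 0.53, all genes -0.05), 1 with EGFlow (median 0.26) and 3 with EGFhigh and EpEX (median 0.53, all genes -0.01), and none fell. The shares of all genes called in these comparisons were 2.55%, 1.5% and 4.52%. With EGFhigh and EpEX, the NFKB2 and TNFAIP3 calls were each lost in 4 alternative fits, counting those with 1 library left out. The adjusted p rose to 0.0990 for NFKB2 and 0.133 for TNFAIP3. In FaDu cells 7 rose with EGFlow (median 1.36), 7 with EGFhigh (median 1.36) and 6 with EpEX (median 1.28), where the medians over all genes were -0.02, -0.01 and -0.01 and 3.45%, 3.06% and 3.5% of all genes were called. With all FaDu replicates 0 genes were called in these 3 comparisons. Whether the lists differ between the lines was not tested.

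RELB, a subunit of NF-kappaB, was called in each of these 6 comparisons. In Kyse30 it had 14.1 ± 4.82 CPM in untreated cells and 47.7 ± 6.60 CPM with EGFhigh at 6 h (log2FC 1.73, adjusted p = 0.00188), and 45.1 ± 14.1 CPM with EGFlow (log2FC 1.65, adjusted p = 0.00532). TNFAIP3, which encodes the NF-kappaB inhibitor A20, went from 8.85 ± 2.27 to 40.6 ± 26.8 CPM with EGFhigh (log2FC 2.18, adjusted p = 0.0366). The TNFAIP3 call was lost without any 1 of the untreated libraries or EGFhigh replicates 1, 2 or 3 (adjusted p from 0.0550 to 0.189), and the RELB call for EGFlow without untreated replicate 1 (adjusted p = 0.0570). In FaDu cells RELB went from 4.07 ± 2.73 CPM in untreated cells to 43.4 ± 14.0 CPM with EGFlow, and TNFAIP3 from 1.55 ± 0.519 to 50.2 ± 22.7 CPM. At 72 h of EGFhigh in Kyse30, 3 genes of the list rose, NFKB2, RELB and IER3 (median of the list 0.68, all genes -0.03). Of all genes, 6.2% were called in this comparison. The RELB call was lost when any 1 of the 3 untreated libraries or EGFhigh replicate 1 or 3 was left out (adjusted p of up to 0.124), and the NFKB2 call without untreated replicate 1 or 2 or EGFhigh replicate 1 (up to 0.131). IER3 went from 479 ± 47.1 to 1859 ± 567.6 CPM (log2FC 1.92, adjusted p = 0.00403).

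Of 17 caspase genes and genes of the mitochondrial arm, 16 were tested in Kyse30. With EGFhigh 2 rose at 6 h, where 2.55% of all genes were called, and 1 rose at 72 h, where 6.2% were, and with EGFhigh and EpEX 1 rose at 6 h, where 4.52% were. BCL2L1, which encodes the survival protein BCL-XL, rose with EGFhigh at 72 h from 19.9 ± 5.06 to 59.0 ± 12.8 CPM (log2FC 1.52, adjusted p = 0.00249). Its level was lower when EpEX was added, at 25.7 ± 6.08 CPM (log2FC -1.16, adjusted p = 0.0348, 3.58% of all genes called). At 6 h PMAIP1, which encodes the death-promoting protein NOXA, rose with EGFhigh (log2FC 1.34, adjusted p = 0.0303), as did CYCS, which encodes cytochrome c (log2FC 0.93, adjusted p = 0.0472). Both calls were lost without any 1 of the untreated libraries or EGFhigh replicates 1 or 3, and that of CYCS also without EGFhigh replicate 2, with adjusted p values of up to 0.159 for PMAIP1 and 0.269 for CYCS. BAX, which encodes a pore-forming death protein, rose with EGFhigh and EpEX (log2FC 1.48, adjusted p = 0.0244), a call lost without any 1 of the Fc libraries or EGFhigh with EpEX replicate 3 (adjusted p of up to 0.102). In FaDu replicates 3 and 4, 4 of the 17 genes rose with EGFlow, 4 with EGFhigh and 3 with EpEX at 6 h, where 3.45%, 3.06% and 3.5% of all genes were called. The survival genes BCL2L1 and MCL1 and the death-promoting PMAIP1 were called in each, with log2FC values from 1.08 to 1.31 and adjusted p values from 0.00345 to 0.0346. All of these calls were lost with all FaDu replicates in the fit (adjusted p of 0.818 or more) and without replicate 3 of the control. Those of MCL1 and PMAIP1 were also lost without replicate 4 of the treatment. Over all alternative fits with EGFlow, EGFhigh and EpEX, MCL1 lost its call in 4, 4 and 5. PMAIP1 lost it in 5, 4 and 4 fits, and BCL2L1 in 3, 2 and 2.

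Of 4 other genes of the inhibitor of apoptosis family, 3 were tested in Kyse30. BIRC5, which encodes survivin and peaks in dividing cells, fell with EGFhigh at 72 h from 98.3 ± 3.63 to 40.9 ± 21.0 CPM (log2FC -1.31, adjusted p = 0.0012, 6.2% of all genes called). EGFlow at 72 h left it at 74.0 ± 20.8 CPM, and EGFhigh was lower than EGFlow (log2FC -0.88, adjusted p = 0.0369, 3.73% of all genes called). Of 7 EGF response genes, 3 were called with EGFhigh at 6 h in Kyse30, where 2.55% of all genes were called. HBEGF and EREG, ligands of EGFR, rose (log2FC 2.43 and 1.28, adjusted p = 0.0315 and 0.0324), and EGR1, an early response transcription factor, was lower (log2FC -1.19, adjusted p = 0.0301). DUSP6, FOSL1, SPRY4 and PHLDA1 were not called, with log2FC values from 0.27 to 1.93 and adjusted p values from 0.0581 to 0.740. Of 9 p53 targets, TP53INP1 fell in Kyse30 at 6 h with EGFhigh (log2FC -2.52, adjusted p = 0.00486), and the other 8 were tested and not called, against the same 2.55% of all genes. In FaDu replicates 3 and 4 at 6 h, HBEGF, EREG, FOSL1 and PHLDA1 rose with EGFlow, EGFhigh and EpEX (log2FC 1.82 to 4.42), as did the p53 targets CDKN1A, which encodes the cell cycle inhibitor p21, and SESN2 (log2FC 1.01 to 3.68), where 3.45%, 3.06% and 3.5% of all genes were called. With all FaDu replicates in the fit 0 genes were called in these 3 comparisons, so these FaDu calls were lost. No library was left out in turn for these EGF response genes and p53 targets or for BIRC5.

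By the pattern of mean log2 CPM over the 13 Kyse30 conditions, among 10227 genes with a mean of at least 5 CPM, the gene most like FADD was TNFRSF10D (Pearson r 0.98), followed by PSMD12 (0.97), MRPL33 (0.97), CLTC (0.97) and LYN (0.97). Of the other genes followed here that reached this mean, TNFRSF10A was closest to FADD (r 0.80) and XIAP farthest (r -0.34). The genes most like BIRC3 were CLK1 (r 0.94), WNT7A (0.93), NDRG1 (0.92), METRNL (0.92) and TGFB1 (0.91). FADD and BIRC3 had an r of 0.24 with each other. These values describe 13 group means, which share the step from 6 to 72 h.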

How the data were processed

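Kyse30 and FaDu cells were profiled by 3′ RNA-seq (QuantSeq 3′ FWD), and the authors deposited 1 table of counts per gene for each of 84 libraries. Per the labels, STAR, HTSeq and the human build GRCh38 (hg38) were used, while the versions, strandedness in counting and any handling of molecular identifiers are not given in the sources used here. The deposited counts were not normalized or pooled. Reads given to no gene (5 tallies) stayed out of library sizes and tests, and in Kyse30 24.6 to 43.6% and in FaDu cells 41.0 to 51.3% of reads were not unique and 5.30 to 15.3% and 5.76 to 10.1% fell on no gene. No pair of libraries was identical.

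Symbols and positions came from GENCODE 29 (58275 of 58395 identifiers matched). Groups follow the labels (line, treatment, time). Genes were filtered with filterByExpr (minimum count 10, minimum total 15) and tested with edgeR 4.0.16 in R 4.3.3 (TMM, quasi-likelihood F test) in 1 fit per line with all its conditions, or over both lines for comparisons between them, and p-values were adjusted by Benjamini-Hochberg over all genes tested. A call required an absolute log2FC above 0.5 together with an adjusted p no higher than 0.05. FaDu fits used replicates 3 and 4. Intervals of count ratios are exact at 95% and, like the floor of 3 counts, cover counting error only.

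The alternatives were DESeq2 1.42.0, the tool of the study, RLE size factors, no filter or a filter at 5 CPM on average, fits of only the groups compared, a replicate block, a joint control of untreated and Fc libraries, all FaDu replicates, and leaving out each library. The 10 genes and the other lists were chosen with earlier results of these data known. Named were the 10 genes, a part of the list genes that were called, list genes that describe levels, neighbours on the chromosome, and the 5 genes most like FADD and BIRC3. Promoter windows came from RefSeq (GRCh38.p14), and the consensus was searched on both strands. Other data types of the study were not used here, and 1 gene of the marker lists is not reported here.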

Additional observations from a re-analysis of the deposited data

Results flagged for a closer look

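Among 40 groups of 4 libraries, taken over the 10 genes, 5 held a library far from the other 3, and chance flags about 1 in 20 groups. In Kyse30 EGFhigh with EpEX at 6 h, replicate 1 was high in CFLAR (118 CPM, the group's median 45.2 CPM) and in FAS (4.62 CPM, group median 3.26 CPM). BIRC3 was high in EGFlow replicate 3 at 6 h (29.9 CPM, group median 14.8 CPM) and in EGFlow replicate 1 at 72 h (46.9 CPM, group median 15.7 CPM). XIAP was low in EGFhigh replicate 3 at 6 h, with 69.6 CPM and a group median of 106 CPM. In the FaDu libraries of replicates 1 and 2, which entered only the alternative fits with all FaDu replicates, TNFRSF10A had a median of 25.1 plain CPM, while the 20 libraries of replicates 3 and 4 had one of 0.135 plain CPM.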

How the results depend on the processing

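The counts of the 10 genes called moved by more than 1.5 times in the following cases. For EGFhigh at 6 h in Kyse30 (2 to 3) they moved by 1.5 times and between the lines (3 to 4) by less. The larger moves of both with libraries left out, and between the lines with all FaDu replicates, are given below. Without a filter, 2 were called for EGFlow at 6 h in Kyse30 (0 in the fit reported), 2 for EpEX at 6 h (0), 2 for EGFhigh with EpEX at 6 h (1), 3 for EGFhigh at 72 h (1), 1 for EGFhigh against EGFlow at 72 h (0), 2 for EGFhigh with EpEX against EGFhigh at 72 h (0), 1 for the EGFhigh effect at 72 h minus that at 6 h (0), and 1 for EGFhigh with EpEX at 72 h in FaDu cells (0). A mean of at least 5 CPM gave 2 for EGFhigh at 72 h in Kyse30, and in FaDu cells, where BIRC3 was then not tested, 1 for EGFlow, 0 for EpEX, where TNFRSF12A also lost its call (adjusted p = 0.0638), and 0 for Fc at 72 h against 6 h. DESeq2 gave 2 for EGFhigh at 72 h and 1 for EGFhigh against EGFlow at 72 h in Kyse30, and 2 for EGFhigh in FaDu cells. With only the groups compared, Kyse30 gave 1 for EGFlow at 6 h and 0 for EGFhigh at 72 h, and FaDu cells 1 for EpEX, 1 for EGFhigh with EpEX at 72 h and 0 for Fc at 72 h against 6 h. With untreated and Fc libraries together, Kyse30 gave 1 for EGFlow at 6 h and 4 for EGFhigh at 72 h, and FaDu cells 2 for EGFhigh. The causes were not tested.

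With all FaDu replicates 1 to 4 in the fit, EGFlow, EGFhigh, EpEX, the Fc time course and the comparison of lines called 0 of the 10. Signs then turned for BIRC3 under EGFlow (log2FC -1.29), under EGFhigh (-2.18) and between the lines (-0.94), for CYLD under EGFlow (-0.21) and EGFhigh (-0.33), for BIRC2 (-0.00034) and IER3 (-0.068) under EGFlow, and for CYCS under EGFhigh (-0.0132).

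When single libraries were left out, the counts ranged from 0 to 2 for EGFhigh at 6 h, from 0 to 2 for EGFhigh at 72 h, from 0 to 1 for EGFhigh with EpEX against EGFhigh at 72 h and from 0 to 1 for the EGFhigh effect at 72 h minus that at 6 h in Kyse30. In FaDu cells they ranged from 0 to 2 for EGFlow, from 0 to 1 for EGFhigh, from 1 to 2 for EpEX and from 0 to 0 for Fc at 72 h against 6 h, where the lone library left in a group was assumed to vary like the other groups. Between the lines they ranged from 2 to 5. For 55 results of called genes of the other lists, 112 fits with 1 library left out lost the call and 161 kept it. Of these 55 results, 12 lost the call with only the groups compared and 1 without a filter. With all FaDu replicates, 31 lost the call and 4 turned in sign. No library was left out for the remaining called genes of those lists.

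In Kyse30, libraries of 1 number had a mean correlation of deviations of 0.0633, from 0.0341 for replicate 3 to 0.126 for replicate 4. Libraries of different numbers had one of -0.0216. The fit reported holds no term for the replicate number, and the labels do not say whether the numbers pair the samples. With the replicate block, more of all genes were called at 6 h in Kyse30, such as 417 in place of 230 for EGFlow. In FaDu cells the mean correlation for 1 number was 0.0713. The value for different numbers, -0.0713, is fixed by centring groups of 2 libraries and gives no comparison. With the replicate block, EGFhigh with EpEX at 72 h in FaDu cells called 1 of the 10, TNFRSF12A (log2FC 1.09), in place of 0, and no other count of the 10 changed.

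Over all genes, counts of calls moved by more than 1.5 times in these cases, with the count of the fit reported in parentheses. In Kyse30, DESeq2 called 423 for EGFlow (230), 701 for EGFhigh (391), 88 for EpEX (4) and 1136 for EGFhigh with EpEX (694) at 6 h, 2 for EpEX (0) and 853 for EGFhigh with EpEX against EGFhigh (550) at 72 h, 477 for untreated cells at 72 h against 6 h (238) and 310 for the EGFhigh effect at 72 h minus that at 6 h (155). Without a filter the counts were 399 for EGFlow and 105 for EpEX at 6 h, 407 for untreated cells at 72 h against 6 h and 401 for the EGFhigh effect at 72 h minus that at 6 h, and between 1 and 13 for the 8 comparisons with 0. The replicate block gave 417 for EGFlow, 636 for EGFhigh, 48 for EpEX and 1091 for EGFhigh with EpEX at 6 h, and 410 for untreated cells at 72 h against 6 h. With only the groups compared the counts were 359 for EGFlow, 9 for EpEX and 209 for EGFhigh with EpEX at 6 h, 502 for EGFhigh (951), 241 for EGFhigh against EGFlow (573) and 194 for EGFhigh with EpEX against EGFhigh at 72 h, and 433 for untreated cells at 72 h against 6 h. The joint control gave 752 for EGFlow, 1069 for EGFhigh and 99 for EpEX at 6 h, and 1602 for EGFhigh and 5 for EpEX at 72 h. A mean of at least 5 CPM gave 17 for EpEX at 6 h.

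In FaDu cells, EGFhigh with EpEX at 72 h (131) gave 212 with DESeq2, 316 without a filter, 246 with the block and 290 with only the groups compared, and Fc at 72 h against 6 h (462) gave 696, 803 and 747 with the first 3 of these. Only the groups compared gave 272 for EGFhigh (491) and 232 for EpEX (560), and the joint control 914 for EGFlow (553), 791 for EGFhigh and 987 for EpEX. All FaDu replicates gave 0 in the 5 comparisons within FaDu cells and 953 between the lines (4400). The difference of the EGFhigh effect between the lines (12) gave 34 with DESeq2, 70 without a filter, 30 with the block, 22 with only the groups compared and 0 with all FaDu replicates.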
